A study of Mus musculus with 44 samples.

Results

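The genes described here are 38 ligands, receptors, SMAD proteins, SMAD inhibitors, Id targets and extracellular handlers of the TGF-beta, activin and BMP pathway. They were taken from a fixed list of symbols matched to the 38202 rows of the deposited tables, and all 38 were found. The list was proposed with liver genotype results of these data known, so liver genotype values of these genes are given as a description and support nothing. Each gene was followed in the liver and the skeletal muscle of 11 wild-type (WT) mice and 11 mice labelled Slc16a13 knockout (KO), which gave 44 libraries of polyadenylated RNA. All animals were male C57BL/6N littermates on a high-fat diet (HFD) for 15 weeks and were killed at 20 weeks of age after an overnight fast. The KO is constitutive in the whole body, was made with CRISPR/Cas9, and removes the promoter and the first exons of the gene for a monocarboxylate transporter. Every group was on the high-fat diet and no group on normal chow was analyzed here.

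TGF-beta family ligands are secreted dimers that bind pairs of type I and type II serine/threonine kinase receptors. The active type I receptor phosphorylates receptor SMADs (SMAD2 and SMAD3 for TGF-beta and activin, SMAD1, SMAD5 and SMAD9 for BMP), which enter the nucleus with SMAD4. SMAD6 and SMAD7 and the ubiquitin ligases SMURF1 and SMURF2 oppose the signal, and the Id genes are direct BMP targets. In liver the BMP ligands of endothelial cells drive hepcidin in hepatocytes, whereas in muscle myostatin and activins restrain fiber growth.

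The libraries held 20150712 to 35218243 counts. The deleted gene was measured first. Slc16a13 had 99 to 302 reads in WT livers and 0 to 8 reads in KO livers, with a log2 difference of -5.45 (SE 0.30, edgeR adjusted p = 2.8e-11). In muscle it had 4 to 22 reads in WT libraries and 11 to 40 reads in those labelled KO, so the drop seen in liver was absent. The deletion takes the promoter and first exons, and reads were not counted by exon, so whether the labels are right was not tested. The latter libraries are called muscle libraries labelled KO throughout. Markers fitted the tissues: the summed level of 6 hepatocyte genes was 68234 to 115009 CPM (counts scaled by library size) in liver and 0.225 to 7.71 in muscle, and that of 6 myofiber genes was 115915 to 182072 CPM in muscle and 0.521 to 53.2 in liver. Other lists, as summed CPM in WT liver and WT muscle, were at 31.8 to 62.1 and 2.12 to 5.83 for cholangiocytes, 11.2 to 19.6 and 38.1 to 51.8 for satellite cells, and 10.9 to 112 and 96.7 to 404 for adipocytes. Of the 6 stellate cell markers, 4 were higher in WT liver (Lrat, Reln, Hand2 and Ngfr) and 2 in WT muscle (Pdgfrb and Rgs5), with a median log2 difference of 3.44, although the summed level was 103 to 176 CPM in liver and 210 to 307 in muscle. In 4 KO livers (animals 532, 602, 583 and 611) long genes had fewer reads than in the mean liver. The slope is of log2 CPM, less each gene's mean over all livers, on log2 gene length. It was -0.53, -0.42, -0.25 and -0.08 in these 4, against 0.0396 to 0.0955 in WT livers. For the liver genotype comparison, counts at each threshold and the values of the named genes are given with and without them. Other values from KO livers include them unless stated. In bulk RNA, fewer cells of a type and less RNA per cell cannot be told apart.

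Promoter sequence is shown for 4 genes whose levels separate the tissues or move together between mice. Inhbc and Inhbe, which encode the hepatic activin subunits beta-C and beta-E, are neighbors on chromosome 10 with starts 18700 bases apart on the same strand. Id2 and Id3 encode inhibitors of helix-loop-helix factors. The windows are the 250 bases before the RefSeq start on GRCm38.p6, at chr10:127370549-127370798 (minus strand) for Inhbc, chr10:127351849-127352098 (minus) for Inhbe, chr12:25096093-25096342 (minus) for Id2 and chr4:136143572-136143821 (plus) for Id3. Capitals mark the SMAD-binding core CAGAC and the GC-rich element GGCGCC that SMAD1 and SMAD5 bind, on either strand.
Inhbc: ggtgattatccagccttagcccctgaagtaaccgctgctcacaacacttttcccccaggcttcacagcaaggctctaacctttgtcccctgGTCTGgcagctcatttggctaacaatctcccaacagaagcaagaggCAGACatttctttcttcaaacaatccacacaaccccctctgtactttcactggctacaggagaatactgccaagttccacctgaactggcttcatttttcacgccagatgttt
Inhbe: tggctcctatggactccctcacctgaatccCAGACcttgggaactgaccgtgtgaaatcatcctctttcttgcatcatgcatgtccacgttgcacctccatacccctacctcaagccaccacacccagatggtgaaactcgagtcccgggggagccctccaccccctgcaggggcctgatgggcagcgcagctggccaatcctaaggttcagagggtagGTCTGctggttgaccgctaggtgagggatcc
Id2: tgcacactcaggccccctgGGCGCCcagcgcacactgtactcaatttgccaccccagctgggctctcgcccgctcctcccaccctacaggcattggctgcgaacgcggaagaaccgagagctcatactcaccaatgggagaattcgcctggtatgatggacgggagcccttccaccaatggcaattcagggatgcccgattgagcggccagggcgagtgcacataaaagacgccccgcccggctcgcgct
Id3: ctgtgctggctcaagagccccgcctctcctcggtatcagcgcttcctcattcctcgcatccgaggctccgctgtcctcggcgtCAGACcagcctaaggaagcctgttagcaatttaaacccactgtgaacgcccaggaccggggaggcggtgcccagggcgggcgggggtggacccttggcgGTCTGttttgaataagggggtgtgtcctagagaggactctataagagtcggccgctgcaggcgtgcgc

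CAGAC occurred 2 times each in the Inhbc, Inhbe and Id3 windows and not in that of Id2. It is a common string that 42.2% of 32851 mouse promoter windows of this length held. GGCGCC occurred once in the Id2 window and in none of the other windows printed, and 9.59% of all windows held it. Of the 28 genes of the list with a window, 14 held CAGAC and 8 held GGCGCC, against 45.8% and 10.8% of all genes with a window. Neither hepatic window held the hepatocyte motifs searched, CAAAGT (HNF4, 12.6% of windows), GTTAAT (HNF1, 6.43%) or TTNNGNAA (C/EBP, 36.8%). These matches describe letters only.

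The first comparison asked how liver and muscle of the same WT mice differed. In WT mice 37 of 38 genes differed between the tissues (edgeR quasi-likelihood test, adjusted p under 0.05), 17 higher in liver and 20 higher in muscle. Of all 13907 genes tested 91.0% differed, 45.5% higher in liver and 45.5% higher in muscle. In the 11 mice labelled KO, 36 of 38 differed, 16 higher in liver and 20 higher in muscle, against 86.7% of 13981 genes (43.9% and 42.8%). Both shares lie near the background of a comparison in which most genes differ, so the sizes and the genes matter more than the counts. The direction was the same in both sets of mice for all 38 genes, and 35 passed in both. Tgfbr2 turned to the liver side with gene length removed (0.17 in WT mice and 0.05 in mice labelled KO), and Smurf1, at 0.04 in mice labelled KO, turned below 0 there with library size alone (-0.08), with 10 counts in every library (-0.01) and on both RPKM scales (-0.10 and -0.08). Inhbc and Inhbe aside, the 8 genes with the largest differences that passed in both sets had edgeR adjusted p of 4.25e-21 (Tgfb3) to 2.19e-09 (Thbs1) in WT mice. CPM ranges of the 11 livers and 11 muscles did not overlap for 27 genes in WT mice (69.9% of all genes) and for 24 in mice labelled KO (60.8%).

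**Figure D1:**
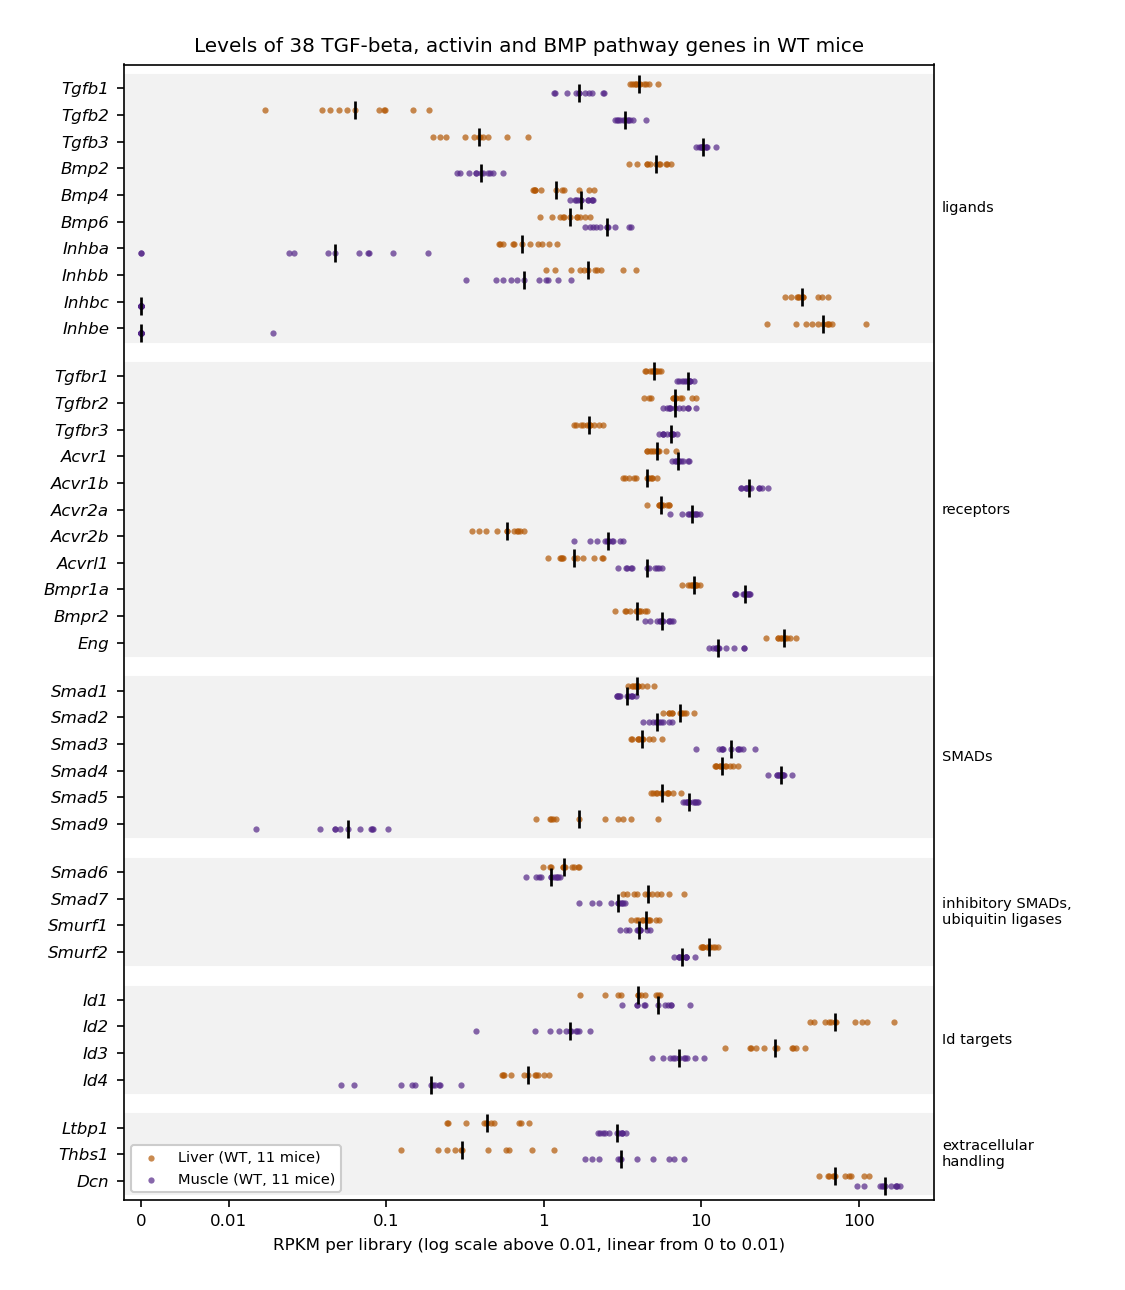
RPKM (reads scaled by gene length and by library size) of the 38 genes in each of the 11 WT livers (dark orange) and 11 WT muscles (purple), grouped by role, on a log axis that turns linear below 0.01. Each point is a library and the black bars are medians. Inhbc and Inhbe sit between 26.3 and 111 RPKM in liver and at or next to 0 in muscle, while Tgfb2 and Tgfb3 are higher in every muscle than in any liver.

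Among the 10 ligands, 6 were higher in liver and 4 in muscle in both sets of mice. Of all genes tested, 45.5% were higher in each tissue in WT mice. In mice labelled KO the shares were 43.9% in liver and 42.8% in muscle. The hepatic activin subunits stood farthest apart. In WT liver Inhbc was at 33.9, 43.7 and 64.1 RPKM (lowest, median and highest of 11 mice) and had 24829 reads in all, against 0 reads in the 11 WT muscles. Its level was thus at least 8723-fold higher in liver, taking 3 counts over the muscle group as the floor. Inhbe, at 26.3, 59.6 and 111 RPKM in WT liver, had 36207 liver reads and 1 muscle read, a ratio of 38162 (95% exact interval 6849 to 1507367, counting error only). In mice labelled KO the muscles held 1 read of Inhbc, a ratio of 29897 (5365 to 1180891), and 2 reads of Inhbe, a ratio of 15105 (4181 to 124733).

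Inhba and Inhbb, the activin A and B subunits, were lower in liver than their hepatic relatives. Inhba was at 0.522, 0.731 and 1.21 RPKM in WT liver and at 0, 0.047 and 0.185 in WT muscle, a log2 difference of 3.73 (SE 0.30). Its ranges did not overlap, but the muscles had only 0 to 7 reads each. Inhbb differed by 1.35 (SE 0.23) with overlapping ranges. Bmp2, a ligand of liver endothelium, was at 3.46, 5.13 and 6.43 RPKM in WT liver and 0.281, 0.402 and 0.549 in muscle (log2 difference 3.69, SE 0.12), with no overlap. Bmp6, its partner in hepcidin control, was higher in muscle, by 0.74 (log2 difference -0.74, SE 0.12). The 6 markers of liver sinusoidal endothelium were all higher in liver (summed 273 to 334 CPM in WT liver and 42.6 to 57.2 in WT muscle), and their part in the Bmp2 difference was not tested.

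The 3 TGF-beta ligands split by tissue. Tgfb1 was higher in liver, at 3.53, 4.05 and 5.34 RPKM against 1.17, 1.68 and 2.42 in muscle (log2 difference 1.20, SE 0.10). Tgfb2 was at 0.017, 0.063 and 0.188 RPKM in WT liver, from 2 to 30 reads, and at 2.84, 3.27 and 4.43 in WT muscle (log2 difference -5.27, SE 0.18). Tgfb3 went from 0.198, 0.39 and 0.792 RPKM in liver to 9.34, 10.2 and 12.3 in muscle (log2 difference -4.68, SE 0.14). Every WT muscle thus exceeded every WT liver for Tgfb2 and Tgfb3, and every WT liver exceeded every WT muscle for Tgfb1. In mice labelled KO the log2 differences were 1.41 (SE 0.15) for Tgfb1, -5.64 (SE 0.20) for Tgfb2 and -4.64 (SE 0.11) for Tgfb3.

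Receptors leaned to muscle: 9 of 11 were higher in muscle in both sets of mice, and only Eng was higher in liver in both. Of all genes tested, 45.5% were higher in muscle in WT mice and 42.8% in mice labelled KO. Acvr1b, the type I activin receptor ALK4 that also serves myostatin, was at 3.21, 4.56 and 5.24 RPKM in WT liver and 17.8, 20.1 and 26.4 in WT muscle (log2 difference -2.29, SE 0.09). Acvr2b, a type II receptor for activin and myostatin, differed by -2.09 (SE 0.14), and the other type II activin receptor, Acvr2a, by -0.59 (SE 0.08). Tgfbr3 (betaglycan), Acvrl1 (the endothelial receptor ALK1) and Bmpr1a (ALK3) differed by -1.64 (SE 0.06), -1.51 (SE 0.09) and -1.28 (SE 0.05). Tgfbr1, Acvr1 and Bmpr2 differed by -0.69 (SE 0.05), -0.53 (SE 0.06) and -0.54 (SE 0.08).

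Eng (endoglin), a co-receptor of ALK1 in endothelium, was at 25.7, 33.6 and 39.8 RPKM in WT liver and 11.2, 12.7 and 18.8 in WT muscle, the reverse of its partner Acvrl1. Its log2 difference was 1.29 (SE 0.07) in WT mice and 1.32 (SE 0.11) in mice labelled KO. Of 6 general endothelial markers, 5 were lower in liver and 1 was higher, and their part in either value was not tested. Tgfbr2, the type II TGF-beta receptor, had a log2 difference of -0.06 (SE 0.10, edgeR adjusted p = 0.591) in WT mice, with medians of 6.83 RPKM in liver and 6.81 in muscle. In mice labelled KO it was -0.37 (SE 0.11, edgeR adjusted p = 0.00413), and -0.24 (edgeR adjusted p = 0.0587) without the 4 KO livers named above and the muscles of the same mice.

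The receptor SMADs did not share a direction. Smad3 was at 3.58, 4.2 and 5.63 RPKM in WT liver and 9.31, 15.4 and 22 in WT muscle (log2 difference -1.84, SE 0.10), while Smad2, its partner in TGF-beta and activin signaling, was higher in liver by 0.59 (SE 0.06). On the BMP side Smad9 (also called Smad8) had a log2 difference of 5.23 (SE 0.38), Smad1 of 0.30 (SE 0.06) and Smad5 of -0.59 (SE 0.04). Smad9 was at 0.892, 1.68 and 5.32 RPKM in liver and at 0.015, 0.057 and 0.102 in muscle, where libraries held 2 to 15 reads. Smad4, the common partner, was at 12.2, 13.6 and 17 RPKM in liver and 26.7, 32.4 and 38 in muscle (log2 difference -1.02, SE 0.05), the highest median RPKM of any SMAD of the list in either tissue. With gene length removed as an offset, Smad2 no longer differed by the test (0.05, SE 0.06, edgeR adjusted p = 0.401 in WT mice, and 0.02 in mice labelled KO). In mice labelled KO the same setting took Smad5 from -0.76 to -0.05 (edgeR adjusted p = 0.442), and Smad1, at 0.23, did not pass with library size alone (0.12, edgeR adjusted p = 0.196) or on either RPKM scale.

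All 4 inhibitors were higher in WT liver, as were 45.5% of all genes tested. Smad7 was higher by 0.88 (SE 0.11), Smurf2 by 0.59 (SE 0.05), Smad6 by 0.36 (SE 0.10) and Smurf1 by 0.17 (SE 0.06). Smurf1 did not pass with library size alone (edgeR adjusted p = 0.0644). In mice labelled KO, 3 of the 4 passed again, and Smurf1 was at 0.04 (SE 0.10, edgeR adjusted p = 0.704). There Smad6 and Smurf2 did not pass with library size alone (edgeR adjusted p = 0.0807 and 0.112) or with limma on either RPKM scale, where Smurf2 went from 0.35 to 0.09, and Smurf1 passed with gene length removed (0.55, edgeR adjusted p = 7.43e-08). Of the Id genes, Id2 showed the largest difference, at 48.9, 71.2 and 168 RPKM in WT liver and 0.372, 1.48 and 1.97 in WT muscle (log2 difference 5.97, SE 0.23). It was the gene of the list with the highest median in WT liver, next to Dcn at 70.7 RPKM, whose range overlapped its own. Id3 and Id4 were higher in liver by 2.04 (SE 0.17) and 2.22 (SE 0.21). Id1 went the other way in WT mice (log2 difference -0.45, SE 0.18, edgeR adjusted p = 0.0208), a call that was lost with the mouse as a block (edgeR adjusted p = 0.050) and was not made in mice labelled KO (-0.09, SE 0.25, edgeR adjusted p = 0.742). With gene length removed, Id1 was at -0.61 in mice labelled KO and passed (edgeR adjusted p = 0.0137).

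The 3 extracellular genes were higher in muscle in both sets of mice. The share of all genes was 45.5% in WT mice and 42.8% in mice labelled KO. Ltbp1, which anchors latent TGF-beta in the matrix, was at 0.243, 0.439 and 0.812 RPKM in WT liver and 2.21, 2.94 and 3.35 in WT muscle (log2 difference -2.51, SE 0.15). Thbs1 (thrombospondin 1), an activator of latent TGF-beta, was at 0.125, 0.304 and 1.17 RPKM in WT liver and 1.82, 3.12 and 7.75 in WT muscle, and differed by -3.13 (SE 0.33) in WT mice and by -3.96 (SE 0.34) in mice labelled KO. Dcn (decorin), a proteoglycan that binds TGF-beta, had the highest level of the list in muscle, at 97, 146 and 182 RPKM against 55.8, 70.7 and 117 in liver, with overlapping ranges (log2 difference -0.85, SE 0.11). The 6 markers of fibro-adipogenic cells were also all lower in liver (summed 28.6 to 133 CPM in WT liver and 243 to 521 in WT muscle), and their part in these values was not tested.

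**Figure D2:**
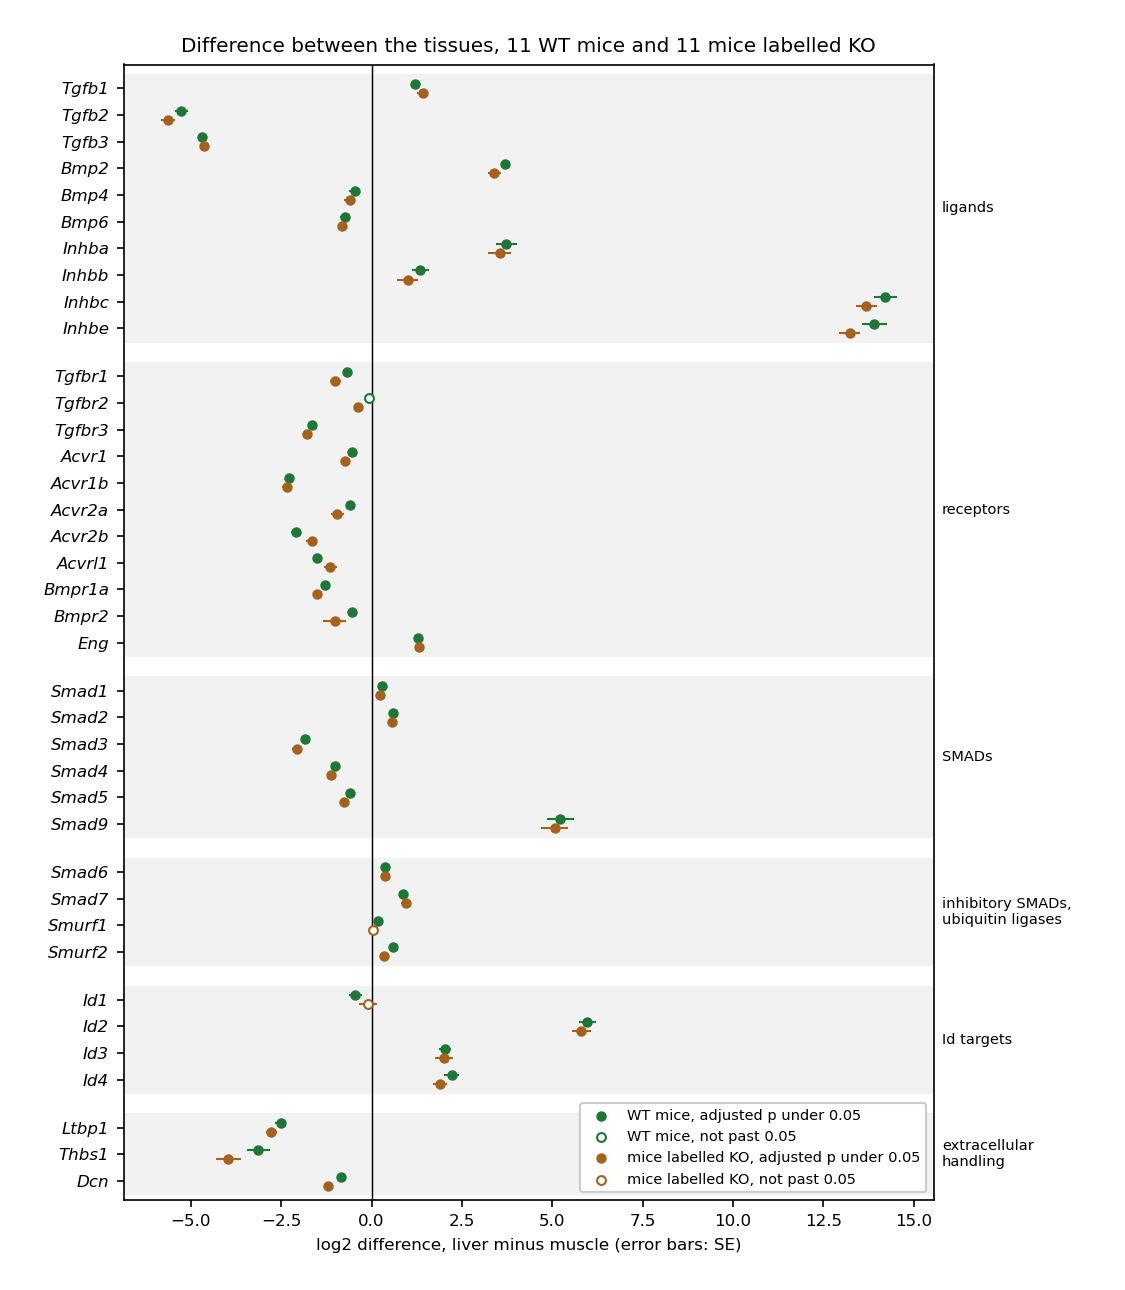
Log2 difference between liver and muscle (positive: higher in liver) for each of the 38 genes in WT mice (green) and in mice labelled KO (brown), with SE as error bars and open circles where the adjusted p was not under 0.05. The fitted values of Inhbc and Inhbe depend on a small prior count, since their muscles held 0 to 2 reads per group. Receptors other than Eng lie left of 0 (Tgfbr2 moved to the right of it with gene length removed), and the hepatic activin subunits, Id2 and Smad9 lie far to the right.

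The wider pathway was followed through 94 other genes. In WT mice 83 could be tested and 78 differed, 30 higher in liver and 48 higher in muscle. Of all 13907 genes tested 91.0% differed, 45.5% each way, so that count lies near the background. The 3 largest differences toward liver were Hamp, which encodes hepcidin, Gdf2, which encodes the circulating ligand BMP9, and Tfr2, an iron sensor of the hepcidin pathway. Hamp was at 439, 1016 and 1658 RPKM in WT liver with 1 read in all WT muscles, although reads can be split with its close copy Hamp2. Gdf2, at 4.31, 5.41 and 7.72 RPKM in WT liver, had 0 reads in WT muscle (at least 1668-fold higher in liver), and Tfr2 had a median of 133 RPKM in liver and 0.095 in muscle. The 3 largest toward muscle were Mstn (myostatin), Bmpr1b (the receptor ALK6) and Itgb6 (an integrin chain that activates latent TGF-beta). Mstn was at 13.8, 19.8 and 25.7 RPKM in WT muscle with 0 reads in WT liver (at least 4797-fold higher in muscle), and Bmpr1b at a median of 2.17 RPKM with 0 liver reads (at least 1007-fold). Itgb6 had a log2 difference of -7.67 (SE 0.21).

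The second comparison asked what the loss of Slc16a13 did to these genes in liver. None of the 37 genes that could be tested passed (edgeR lowest adjusted p = 0.382), nor did any by DESeq2, and 3 of all 13005 genes did (0.0231%). At an unadjusted p under 0.05 there were 2, both lower in KO, against 12.9% of all genes (3.1% lower and 9.78% higher). KO and WT ranges overlapped for all 38 genes, and 0.00764% of all genes had ranges that did not. The values leaned to one side: 31 of 37 log2 differences were below 0 with a median of -0.14, against 51.1% below 0 and a median of -0.0054 over all genes. That lean is what brought the list forward and is not independent evidence.

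The genes with the smallest unadjusted p were Id4, Inhba, Tgfbr2 and Smad3. Id4, an Id target, was at 0.883, 1.29 and 1.76 CPM in WT liver and 0.665, 0.954 and 1.43 in KO liver (log2 difference -0.38, SE 0.16, unadjusted p = 0.0235). Inhba was at 0.763, 1.22 and 1.91 CPM in WT and 0.408, 0.644 and 1.8 in KO (-0.50, SE 0.24). Tgfbr2 and Smad3 had log2 differences of -0.26 (SE 0.13) and -0.15 (SE 0.08). Ranges overlapped in each case, and without the 4 KO livers the values were -0.27 for Id4, -0.20 for Inhba, -0.14 for Tgfbr2 and -0.03 for Smad3, which was at 0.00 with gene length removed.

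The lean was larger in the 4 KO livers in which long genes had few reads, which stood apart over all genes. In those, 68 of 152 values (38 genes in 4 livers) lay below the WT range and 11 above, while in the other 7 KO livers 23 of 266 lay below and 12 above. The share outside the WT range in the 4 livers, 52.0%, was near that of all genes with 10 counts in at least 11 livers (54.8%), and in the other 7 it was 13.2% against 18.4%. Over all genes the values in the 4 livers fell on both sides (28.8% below and 25.97% above), and those of the list mostly below (44.7% and 7.24%). Bmpr2, the type II BMP receptor, showed it most: it had 34, 32, 87 and 161 reads in animals 532, 602, 583 and 611, against 264 to 425 in WT livers. In CPM these were 1.26, 1.33, 3.43 and 5.15, below all WT livers (9.91 to 16.3) and all other KO livers (11.2 to 14.9). Acvr2a, Tgfbr1, Bmpr1a, Smad4, Smad5, Smurf2 and Inhba were also below the WT range in all 4. The liver with the most negative slope had the highest level of Acvrl1, at 12.2 CPM in animal 532 against 2.68 to 4.48 in WT livers, and for Id3, at 68.6 CPM against 17.5 to 54.8. Eng, in contrast, stayed within the WT range in all 4.

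**Figure D3:**
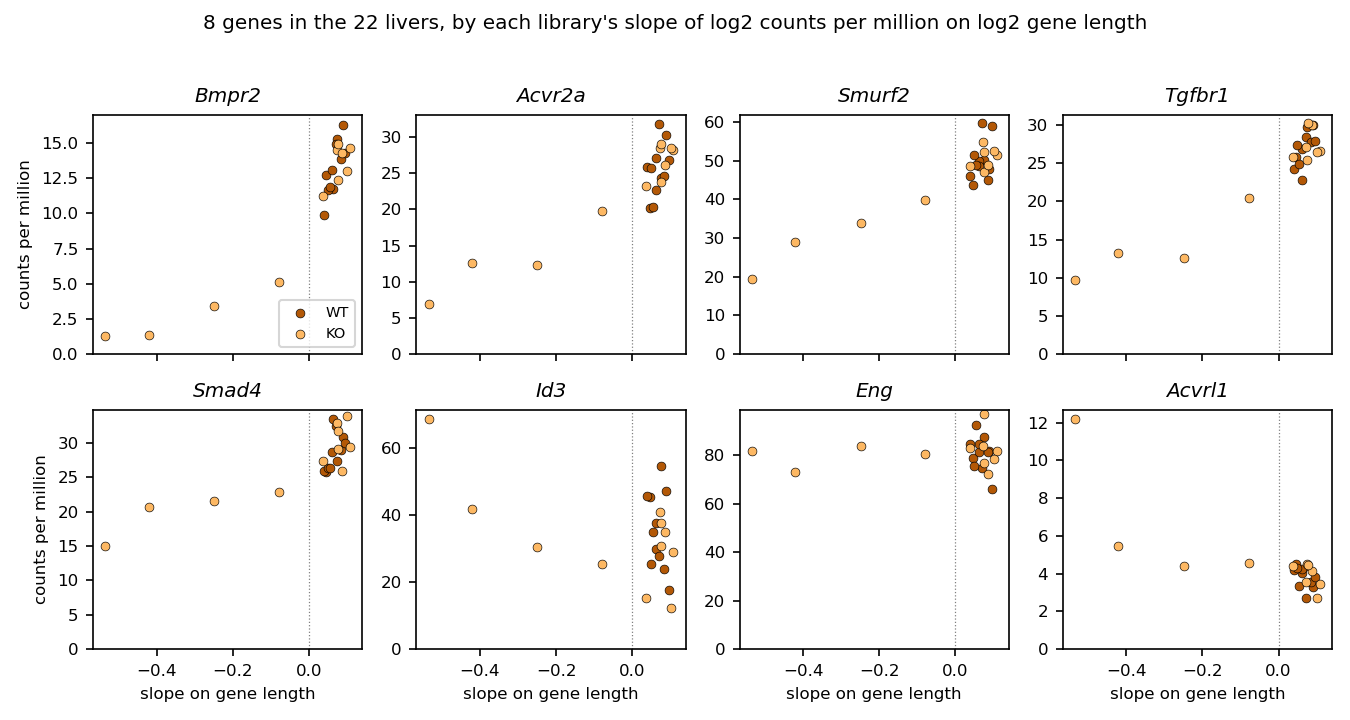
CPM of 8 genes in the 22 livers against each library's slope on gene length (WT dark orange, KO light orange, with CPM on a linear axis from 0). The slope is of log2 CPM, less each gene's mean over the 22 livers, on log2 gene length. The 4 KO livers left of the dotted line at 0 have lower Bmpr2, Acvr2a, Smurf2, Tgfbr1 and Smad4 than every WT liver, Eng within the WT range, and in 3 of 4 more Acvrl1 than every WT liver.

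Without these 4 livers, 22 of 38 log2 differences were below 0, with a median of -0.02, against 49.7% of all genes. None of the list had an unadjusted p under 0.05, against 391 of all 13210 genes. Bmpr2 moved from -0.46 (SE 0.32) to 0.04 (SE 0.09), Acvrl1 from 0.34 (SE 0.19) to 0.01 (SE 0.11) and Tgfbr1 from -0.26 (SE 0.16) to 0.03 (SE 0.06). Thbs1 kept the most negative value of all, at -0.66 (SE 0.35) with and -0.47 (SE 0.38) without them. With gene length removed in all 22 livers, 24 of 37 were below 0 and the median was -0.07. Over all genes 42.3% were then below 0 and the median was 0.026. The median listed length was 2971 bases for the genes tested here and 2412 for all genes tested. None of the 6 Kupffer cell markers passed in KO liver (edgeR lowest adjusted p = 0.382). All 6 had values above 0, and 4 had an unadjusted p under 0.05, against 9.78% of all genes in that direction. Their summed level was 226 to 761 CPM in KO and 257 to 345 in WT, and their part in these values was not tested.

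**Figure D4:**
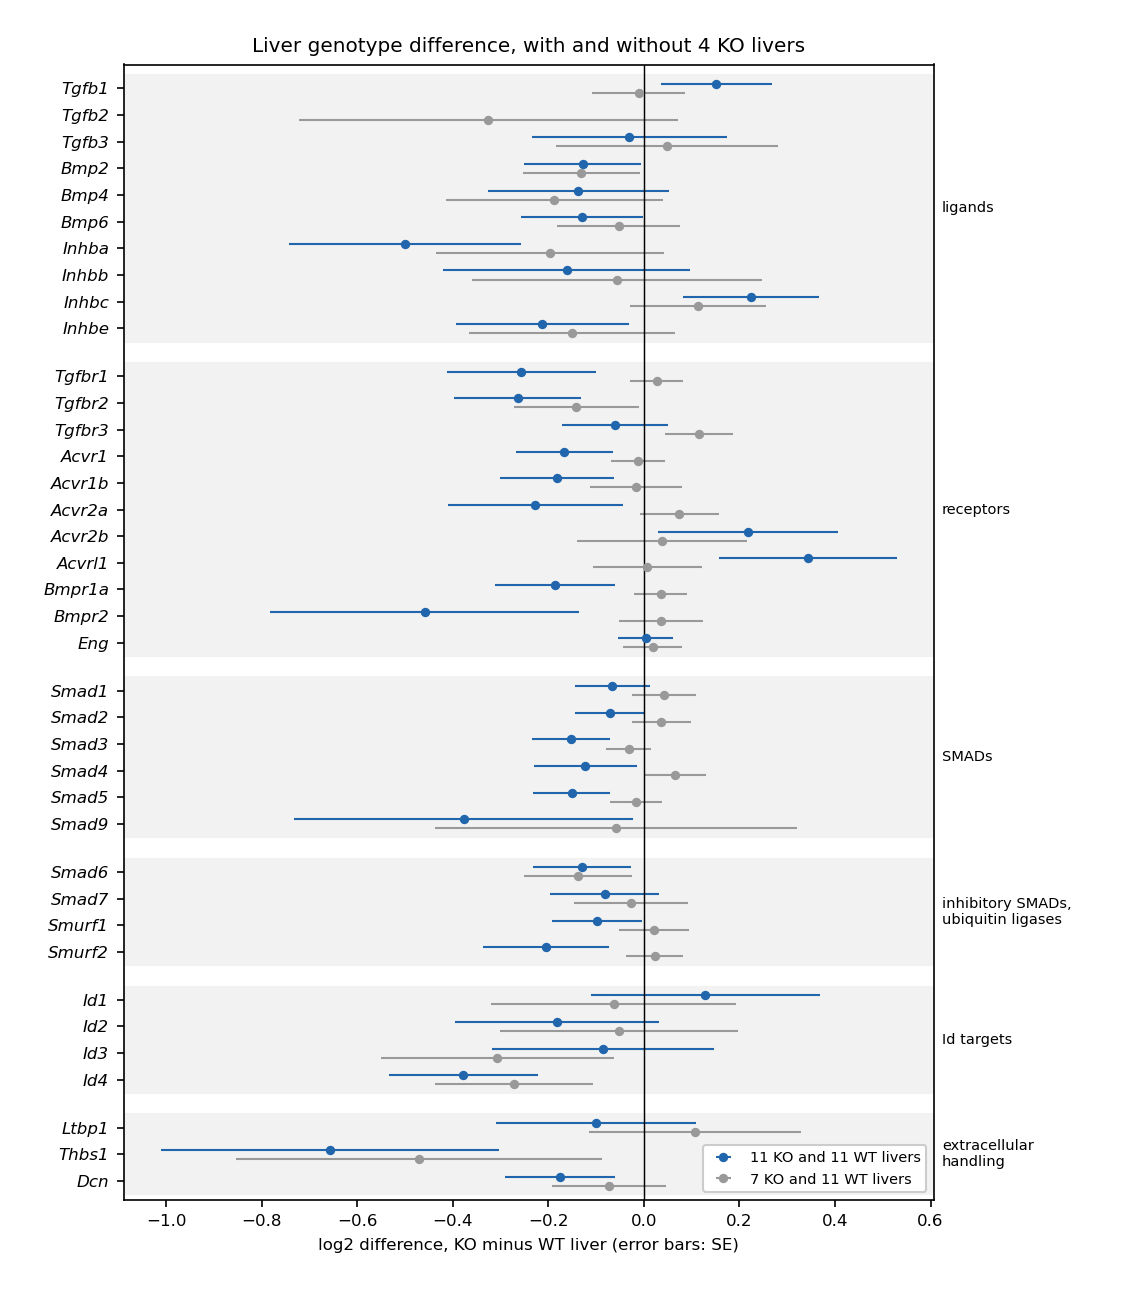
Log2 difference between KO and WT liver for each gene with all 11 KO livers (blue) and with the 7 KO livers whose slope on gene length was above 0 (gray), with SE as error bars. No gene passed an adjusted p of 0.05 in either fit, and the blue points lie mostly left of 0 while the gray points lie on both sides. Tgfb2 was too low to be tested with all livers.

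In muscle, the libraries labelled KO and the WT libraries were compared in the same way. Of the 33 genes that could be tested, 0 passed (edgeR lowest adjusted p = 0.545; 0 by DESeq2), against 0.00754% of 13266 genes, and 1 had an unadjusted p under 0.05, against 8.58% of all genes. Id4, Inhba, Inhbc, Inhbe and Smad9 were too low in muscle. The log2 differences were small, with a median of 0.03 and 14 of 33 below 0, against 47.7% of all genes. Dcn had the smallest unadjusted p (0.0388), at 186, 280 and 325 CPM in WT and 262, 314 and 379 in muscle labelled KO, a log2 difference of 0.19 (SE 0.08) with overlapping ranges. Next came Tgfbr3 with 0.10 (SE 0.05), Acvr2b with -0.20 (SE 0.10) and Ltbp1 with 0.16 (SE 0.08). The summed fibro-adipogenic markers were 243 to 521 CPM in WT and 300 to 714 CPM in muscle labelled KO, those of adipocytes were 96.7 to 404 and 136 to 900 CPM, and their part in the Dcn and Ltbp1 values was not tested.

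A direct test asked whether the genotype difference in liver differed from that in muscle. The liver genotype values known when the list was proposed enter this test, so its values for the list are a description and support nothing. All 38 genes could be tested over the 44 libraries and 0 passed (edgeR lowest adjusted p = 0.277; 0 by DESeq2), against 0.00678% of 14739 genes, and the only gene called was Slc16a13. At an unadjusted p under 0.05 there were 4, against 16.2% of all genes, and 30 of 38 values were below 0, against 53.9%. These 4 were Dcn, with a liver minus muscle difference of the log2 genotype difference of -0.36 (SE 0.15), Smad5 with -0.18 (SE 0.09), Acvr2b with 0.42 (SE 0.21) and Tgfbr2 with -0.32 (SE 0.16). Smad5 turned to 0.08 with gene length removed. Without the 4 KO livers, with the muscles of those mice kept, 23 of 38 values were below 0, against 55.5% of all genes. At an unadjusted p under 0.05 there were 0 without those 4 livers. With the mouse as a block there were 8. Over all genes these counts were 720 of 14996 and 2263 of 14739. Of the 94 other pathway genes, 0 passed in liver (75 tested), in muscle (80 tested) or in the test between tissues (86 tested). At an unadjusted p under 0.05 there were 4, 6 and 7, against 12.9%, 8.58% and 16.2% of all genes.

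Genes differed in how much they varied between mice of 1 group. In WT liver Smad3 varied least, with a highest to lowest CPM ratio of 1.10, whereas in WT muscle its ratio was 2.38. Smad9 ranged from 4.58 to 28.7 CPM among WT livers, a ratio of 6.27 from libraries with 114 to 701 reads of it, and Thbs1 from 0.737 to 6.48 CPM, a ratio of 8.79 from 18 to 156 reads. In muscle Thbs1 again varied widely, with ratios of 4.23 in WT and 4.98 in libraries labelled KO. Inhbb, the activin B subunit, had ratios of 3.85 and 3.86 in WT and KO liver and of 4.32 and 4.16 in WT and KO-labelled muscle. These ratios are a description, and the spread of the low genes includes counting error.

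Relations between genes of the pathway were then measured across the 11 mice of each group, for 30 relations of 8 pairs (Inhbc and Inhbe in liver only). Id1 and Id3, both BMP targets, moved in the same direction in all 4 groups. In muscle labelled KO the Pearson r was 0.85 (permutation p = 9.7e-04, adjusted p = 0.0291 over 30 relations) and Spearman's rho was 0.90 (permutation p = 4.4e-04, adjusted p = 0.0132). This was the only relation that passed, and r was 0.71 without the 2 mice farthest from the median of Id1. In WT liver, KO liver and WT muscle r was 0.58, 0.69 and 0.71 and rho was 0.62, 0.63 and 0.54, with permutation p of 0.0617, 0.0156 and 0.0129 for r and adjusted p of 0.206, 0.0934 and 0.0934. Without the 4 KO livers r was 0.64 in the other 7. Whether r differed between the groups was not tested.

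The neighbors Inhbc and Inhbe ran in opposite directions among WT livers, with r of -0.77 (permutation p = 0.00422, adjusted p = 0.0633) and rho of -0.72 (permutation p = 0.0159, adjusted p = 0.159), and r of -0.54 without the 2 mice farthest from the median of Inhbc. In KO liver r was -0.13 (permutation p = 0.704) and rho was -0.29, and the difference between genotypes was not tested. With log2(RPKM + 0.1) in place of log2 CPM, r in WT liver was -0.78 with an adjusted permutation p of 0.0469. Eng and Acvrl1 had r of 0.73 in WT muscle and 0.61 in muscle labelled KO (adjusted permutation p = 0.0934 and 0.185), which fell to 0.18 and 0.01 without the 2 mice farthest from the median of Eng, so these rest on those mice. In liver their r was 0.10 and 0.02 in WT and KO. Id1 with Smad6 and with Smad7, the inhibitory SMADs that BMP signaling induces, had r of 0.68 and 0.60 in WT liver (adjusted permutation p = 0.111 and 0.185), and in KO liver -0.12 and 0.53. Id1 with Id2, Id1 with Bmp6 and Id3 with Bmp6 gave r between -0.52 and 0.50, none of which passed.

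**Figure D5:**
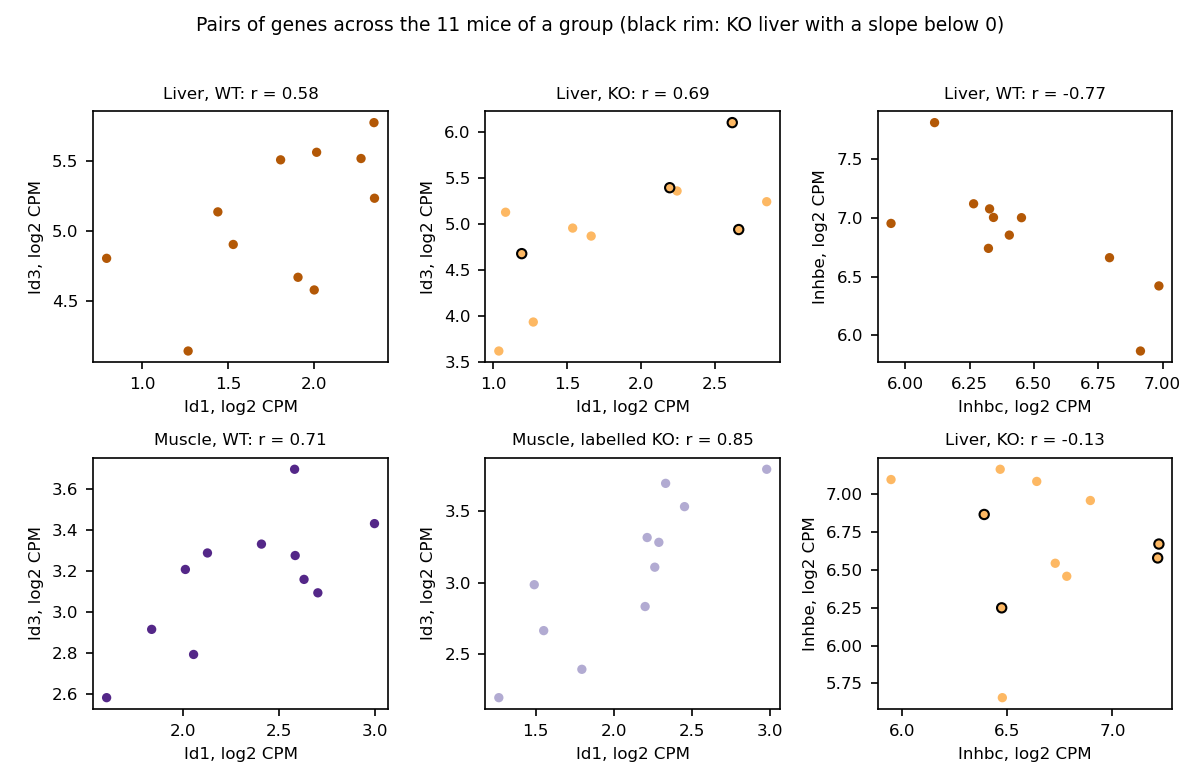
Log2 CPM of Id1 and Id3 across the 11 mice of each of the 4 groups, and of Inhbc and Inhbe across WT and KO livers, with 1 point per mouse and Pearson's r above each panel. Black rims mark the 4 KO livers with few reads of long genes. The Id1 and Id3 points rise together in all 4 groups, and Inhbe falls as Inhbc rises in WT livers with r of -0.77.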

How the data were processed

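RNA of liver and skeletal muscle from 11 WT mice and 11 mice labelled KO was sequenced by the authors as 85-base single-end reads from stranded poly(A) libraries, and reads were assigned to genes. The deposited counts are whole reads per gene, not normalized, and the deposited RPKM values are the authors' reads scaled by gene length and library size. The aligner, counter, genome build and annotation are not given in the sources used here. The 2 tables are not exact rescalings of each other, since the gene length that RPKM implies strayed by more than 1% in 45.7% of values. How the libraries fell into sequencing pools is not stated for each library, so pool and group cannot be told apart. Library totals were 20150712 to 35218243 counts. No pair of libraries held identical values.

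Genes were named through the symbols paired with Ensembl IDs, and the members and lists were chosen with earlier results of these data known. Counts were fitted with edgeR (TMM scaling, filterByExpr, glmQLFit and glmQLFTest), with Benjamini-Hochberg adjustment over all genes tested and a threshold of 0.05. Fits held only the groups compared, except for the test between tissues, which held all 44 libraries. CPM and log2 CPM (prior count 2) were scaled by TMM within a tissue, also for the marker sums. The counts of genes whose ranges did not overlap, between tissues and between genotypes, used CPM of library totals. RPKM was used for levels of different genes and, in limma on log2(RPKM + 0.1) and log2(RPKM + 1), as an alternative. P-values measure the spread between mice. The main tissue fits and the test between tissues held no term for the mouse, so liver and muscle of 1 mouse were treated as independent. Relations used two-sided permutation tests with 100000 resamples. Promoters were taken from RefSeq windows of GRCm38.p6, which held 28 of the 38 genes. Versions were R 4.3.3, edgeR 4.0.16, limma 3.58.1, DESeq2 1.42.0, Python 3.11.15 and SciPy 1.17.1.

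Genes named in full were, for the tissues, the 5 with the largest log2 difference each way that passed in both sets of mice, and for each genotype comparison the 4 with the smallest unadjusted p when none passed. From the other pathway genes these were the 3 largest each way between tissues. Others were named after their values were seen. The marker lists were those of hepatocytes, sinusoidal and general endothelium, stellate cells, Kupffer cells, cholangiocytes, myofibers, fibro-adipogenic cells, satellite cells and adipocytes. Simulated data with 200 genes changed by a log2 difference of 1 gave back 98% of them for liver (13005 genes), 99.5% for muscle (13266 genes) and 98.5% for the tissues (13907 genes). Both groups were drawn from levels and spread of WT libraries alone, those of WT liver for the tissues. The changed genes were above a minimum expected count. Smaller changes were not simulated, and every liver genotype difference of the list was smaller. With the 4 KO livers with a slope below 0 included, the genes of the list varied more between KO livers than between WT livers. The median SD of log2 CPM was 0.366 against 0.281, and it was not computed without those 4. What this wider spread does to the 98% for liver was not tested. Same-numbered liver and muscle libraries come from 1 mouse by the labels. Over 10426 genes, deviations from the group mean correlated between the tissues of 1 mouse with a mean r of 0.112 in WT and 0.11 in KO, against -0.0113 and -0.00941 between different mice. Values of r ran from -0.0439 to 0.217 in WT and from -0.00707 to 0.275 in KO, and 7 of 11 WT livers but 2 of 11 KO livers correlated best with the muscle of their own mouse. A fit with the mouse as a replicate block was an alternative. Other alternatives were DESeq2, scaling by library size, other filters, gene length as an offset, voom with quality weights, leaving out the 4 KO livers with a slope below 0, and leaving out each mouse.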

Additional observations from a re-analysis of the deposited data

How the results depend on the processing

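No count of genes that passed changed by more than 1.5 times under any alternative. In WT mice 31 to 37 genes differed between tissues (31 with 10 counts in every library, where 32 could be tested), and 30 to 36 in mice labelled KO. With the mouse as a replicate block, 36 passed in WT mice (Id1 was lost), 36 in mice labelled KO and 0 in the test between tissues. It changed no other call of these genes. Smad1, Smad2, Smad5, Smad6, Smurf1, Smurf2, Id1 and Tgfbr2 changed side of the threshold between tissues under at least 1 setting. The genotype comparisons gave 0 under every alternative. The count at an unadjusted p under 0.05 moved. In liver it was 2 (1675 of all 13005 genes), and 4 with library size alone (1407 of 13005). It was 11 with either RPKM scale (2156 of 14306 with log2(RPKM + 0.1) and 2126 with log2(RPKM + 1)). It was 0 with quality weights (679 of 13005) or without the 4 KO livers (391 of 13210). In muscle it was 1 (1138 of all 13266 genes), and 2 with DESeq2 (1089 of 13266) or either RPKM scale (1052 and 1061 of 14579). It was 3 with library size alone (1128 of 13266) or quality weights (1272 of 13266). In the test between tissues it was 4 (2385 of all 14739 genes), and 7 with library size alone (2332 of 14739). With gene length removed it was 2 (1796 of 14739) and with the replicate block 8 (2263 of 14739). It was 9 with log2(RPKM + 0.1) (2505 of 15104) and 11 with log2(RPKM + 1) (2518 of 15104). Without the 4 KO livers it was 0 (720 of 14996). In muscle, 9 of 33 values were below 0 with library size alone (38.1% of all genes), against 14 (47.7% of all genes). Leaving out each mouse gave 0 genes past the threshold in both tissues. At an unadjusted p under 0.05 there were 1 to 5 in liver and 0 to 3 in muscle. Over all genes these fits gave 856 to 2547 in liver and 869 to 1432 in muscle. Below 0 were 30 to 32 in liver and 9 to 15 in muscle. Library size alone shifted the median liver difference of all genes to -0.07. With log2(RPKM + 0.1), 2 relations passed in place of 1, the second being Inhbc and Inhbe in WT liver. The causes of these shifts were not tested. Depth limits Inhba, Smad9 and Id4 in muscle and Tgfb2 in liver, where libraries held 0 to 30 reads.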
